A study of Mus musculus with 8 samples.

Results

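Pax6 sites in outer promoters are the sites of a deposited ChIP-seq table whose annotation reads 1 to 2 kb or 2 to 3 kb from an annotated transcription start, upstream or downstream. They number 2122 of 26244 sites, 1205 in the nearer band and 917 in the farther one. That is 8.09% of all sites and 29.4% of the 7216 sites annotated to promoters. Chromatin immunoprecipitation with sequencing (ChIP-seq) of Pax6 had been done in alphaTC1 cells, a mouse glucagon-producing alpha-cell line, with 2 Pax6 ChIP libraries in each of 2 groups that the series describes as biological duplicates. Control knockdown (control KD) cells received antisense oligonucleotides of scrambled sequence, and Paupar knockdown (Paupar KD) cells received antisense oligonucleotides against Paupar, a long non-coding RNA whose gene neighbours Pax6. The cells were 1 line in all samples, and their identity and the level of Paupar RNA are not measured by this assay. The 4 input libraries were not analysed here. The question was where Pax6 occupancy differed between the groups.

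Pax6 is a transcription factor with a paired domain and a homeodomain, and is needed for islet endocrine cells, the eye and the forebrain. The core promoter is, strictly, the stretch around a start where the transcription machinery assembles. Here a core promoter site is any site annotated within 1 kb of a start, which is a wider stretch. The flanking stretch that is here called the outer promoter often holds further binding sites, the first intron, or the start of another transcript. A site assigned to a gene by its distance is not thereby shown to act on it.

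The window of each site is 100 bp long. No genome sequence was used here, and the RefSeq promoter table (GRCm38.p6, 300 bases around 32851 starts) held the whole window of only 10 of the 2122 outer promoter sites. These 10 are exceptions, since only 16 of the 2122 windows (0.754%) overlapped such a promoter at all. They do not stand for outer promoter sites in general. A few of the 10 windows, all wholly before the start, are shown as examples. They are read on the strand of the overlapping promoter, with CG and the E-box CANNTG in capitals. The first is the strongest of the 10, the next pair sit just before a start, and the last has the largest change. None of them was called.
Coro1c site, chr5:113873113-113873212, plus strand: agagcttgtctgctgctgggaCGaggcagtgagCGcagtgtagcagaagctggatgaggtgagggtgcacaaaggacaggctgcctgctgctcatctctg
Cpeb4 site, chr11:31870834-31870933, plus strand: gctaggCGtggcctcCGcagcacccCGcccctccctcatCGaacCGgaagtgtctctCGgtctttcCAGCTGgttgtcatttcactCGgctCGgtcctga
Dact2 site, chr17:14202388-14202487, plus strand: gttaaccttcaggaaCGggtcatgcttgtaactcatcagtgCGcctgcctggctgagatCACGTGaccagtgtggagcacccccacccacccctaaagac
Serpinb9 site, chr13:33005863-33005962, minus strand: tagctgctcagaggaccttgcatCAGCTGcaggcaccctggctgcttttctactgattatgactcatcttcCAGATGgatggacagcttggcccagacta
The Coro1c window lay 1.44 kb downstream of a Coro1c start, and its sequence stands in the promoter of the predicted gene Gm42005; Dact2 and Serpinb9 windows likewise lay in the promoters of Gm34510 and Gm36181. The Cpeb4 window was listed 1.28 kb upstream of the start the authors used, but ended 6 bp before a RefSeq start of Cpeb4, which encodes a cytoplasmic polyadenylation element binding protein. The Coro1c window had concentrations, the authors' mean log2 signal of a group, of 7.70 for control KD and 7.05 for Paupar KD (FDR 0.187) by the authors' deposited table. The Cpeb4 window had 6.21 and 6.08 (FDR 0.914), the Dact2 window 6.44 and 5.95 (FDR 0.479) and the Serpinb9 window 4.70 and 5.99 (FDR 0.102) by the authors' deposited table. The paired-domain core TTCACGC and the homeodomain pair TAATNNNATTA, searched on both strands, were in 0 of the 10 windows; 0.393% and 0.155% of RefSeq promoters hold them in a stretch of that length. The E-box was in 7 of the 10 windows and in 35.9% of promoter stretches of that length, and CG was in 9 of 10 and in 78.2%. These shares describe the 10 windows and not outer promoter sites in general. CG and the E-box can share letters. No match says only that these letters are not in a window.

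Gcg, which encodes the glucagon precursor, had the strongest mean signal among the largest rises described below. The 250 bases before its RefSeq start are shown because 2 outer promoter sites flank them; capitals mark the part that belongs to a core promoter site lying between them.
Gcg promoter, chr2:62483654-62483903, minus strand: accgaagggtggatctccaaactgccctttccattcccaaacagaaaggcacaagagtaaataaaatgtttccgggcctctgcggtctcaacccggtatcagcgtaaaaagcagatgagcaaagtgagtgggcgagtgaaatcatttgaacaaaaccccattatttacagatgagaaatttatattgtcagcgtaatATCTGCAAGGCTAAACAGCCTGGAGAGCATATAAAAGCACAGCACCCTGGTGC
The core site (62483607 to 62483706) had 7.01 for control KD and 7.64 for Paupar KD (FDR 0.155) by the authors' deposited table. A weaker core promoter site at another start (62480465 to 62480564) stood at the floor of the scale, -0.01, without and at 4.69 with Paupar KD (FDR 0.0102) by the authors' deposited table. The upstream outer site (62485081 to 62485180) had 2.53 and 6.90 (log2 change 4.36, FDR 0.0317), and the downstream one inside the gene (62478621 to 62478720) had 1.55 and 4.72 (log2 change 3.17, FDR 0.0200), by the authors' deposited table. Both outer sites thus had their summits in Paupar KD libraries alone, the downstream one in replicate 1 only, while the stronger core site had a summit in all 4 libraries. The downstream site is measured from a second start inside the gene, 1.96 kb away, not from the promoter shown. Over the 300 bases of the RefSeq promoter there were 3 E-boxes, 7 CG and 0 matches of either Pax6 motif; 72.3%, 94.6%, 1.26% and 0.487% of RefSeq promoters hold the E-box, CG, the paired-domain core and the homeodomain pair.

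The outer promoter sites were annotated to 1798 genes, of which 263 had 2 or more such sites and 42 had 3 or more. Of the sites, 1197 lay downstream of the start and 925 upstream, and 157 of the upstream sites lay inside another RefSeq gene. The start was often not the main one of the gene. Of 2120 sites that could be compared with RefSeq, 782 were measured from a start within 500 bp of the gene's 5′ end and 1338 from another start. By gene type, 1878 sites belonged to protein-coding genes, 165 to long non-coding RNA genes and 63 to microRNA genes. Of the 2122 windows, 16 (0.754%) overlapped a RefSeq promoter, against 1872 of 5094 core promoter windows (36.7%). Outer sites lie by rule over 1 kb from the annotated start, so a low share was set in advance. The nearest other Pax6 site was a median of 5.77 kb away, against 8.70 kb over all sites, and 117 outer sites had another site within 1 kb. At 701 genes, with 896 of the outer sites, a core promoter site was listed too, and 1097 genes had outer sites and no core site.

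Signal at the outer promoter sites was like that of the table as a whole and below that of core promoters. The median mean concentration was 4.39 (quartiles 3.58 and 5.24), against 4.42 over all sites and 5.44 in core promoters, by the authors' deposited table. The group medians were 4.34 in control KD and 4.45 in Paupar KD. Sites were dense at the start and sparse beyond it, with 1520 that overlapped a start, 3574 others within 1 kb, 1205 at 1 to 2 kb and 917 at 2 to 3 kb. Median signal was lower in each band farther out, from 5.75 at the start to 4.81 at 500 to 1000 bp, 4.44 at 1 to 2 kb and 4.32 at 2 to 3 kb, with 4.64 at 900 to 1000 bp and 4.74 at 1000 to 1100 bp next to the inner limit. Upstream and downstream sites had medians of 4.44 and 4.34.

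**Figure D1:**
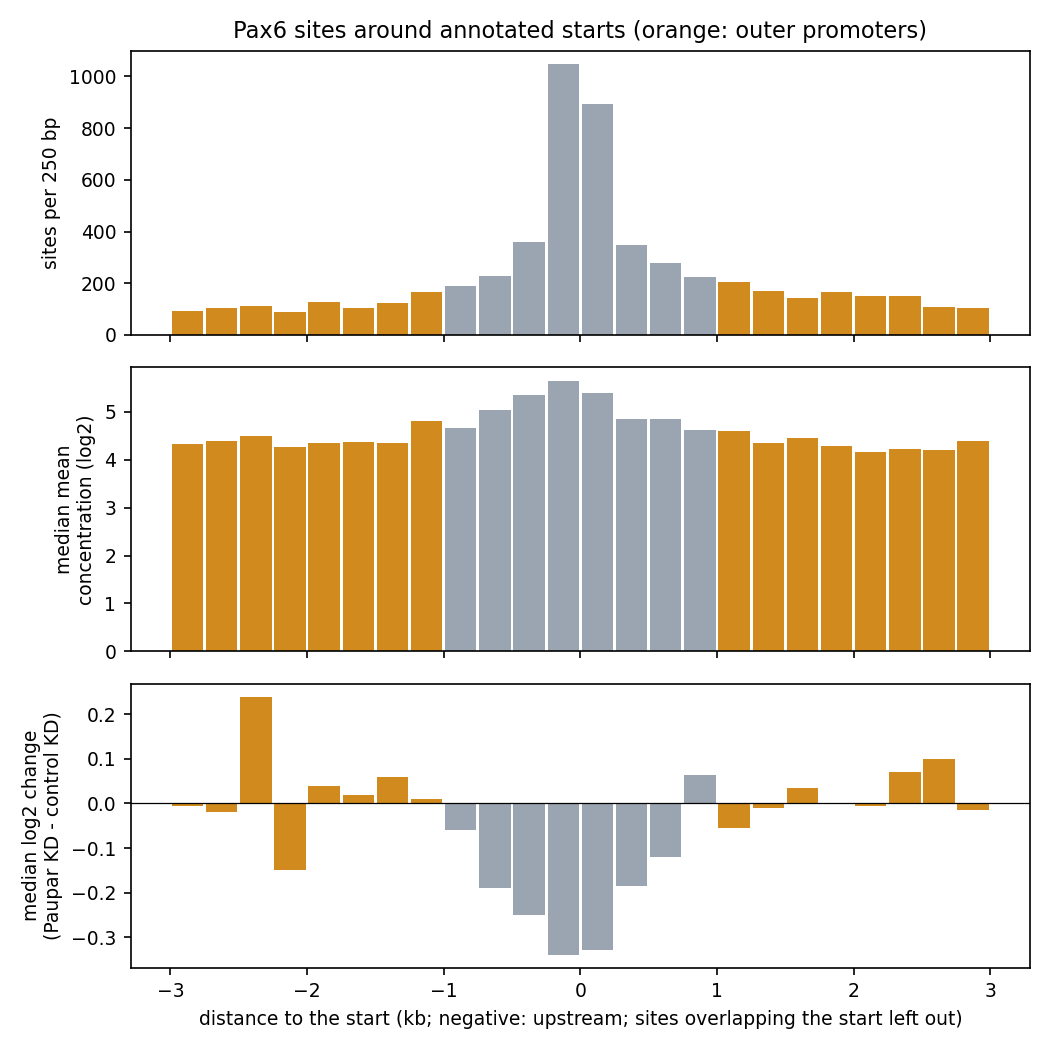
Pax6 sites by distance to the annotated start in bins of 250 bp: number of sites, median mean concentration (log2) and median log2 change (Paupar KD minus control KD). Orange bins are the outer promoters, where the median changes lie on both sides of 0, while most bins within 1 kb lie below it.

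After Paupar KD, 66 outer promoter sites were higher and 11 were lower at an FDR below 0.05 in the authors' own test, which compares the 2 groups of libraries and gives group means only. Over all 25234 sites inside the authors' adjustment, 3.39% were higher and 0.88% lower. Of the 2048 outer sites inside it, 3.22% were higher and 0.537% lower, both near the background. Core promoter sites had 0.935% higher and 1.77% lower, with 47 and 89 sites. The median log2 change was 0.02 (quartiles -0.47 and 0.70) in outer promoters, -0.03 over all sites and -0.30 in core promoters. No test of these differences between classes of sites was run. With only the 812 outer sites that had a summit in at least 1 library of each group, 15 were higher (1.85%) and 11 lower (1.35%), against 1.7% and 1.59% of all sites under the same filter. Shares under this filter are of every site it left, inside the adjustment or not.

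Direction moved with signal, in outer promoters as elsewhere. In the lowest quartile of mean signal, fixed over all sites, the outer sites had a median log2 change of 0.57 with 6 higher and 0 lower. The next quartile had 0.17 with 20 and 0, and the one above it -0.09 with 19 and 0. In the highest quartile, which held 458 outer and 2644 core sites, the outer sites had a median of -0.27 and the core sites -0.44. There 4.59% of outer sites were higher and 2.40% lower, against 0.454% and 3.21% of core sites and 3.0% and 2.88% of all sites of that quartile. So the highest quartile is where the calls of the 2 promoter classes lay farthest apart, with 21 higher outer sites and 12 higher core sites.

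**Figure D2:**
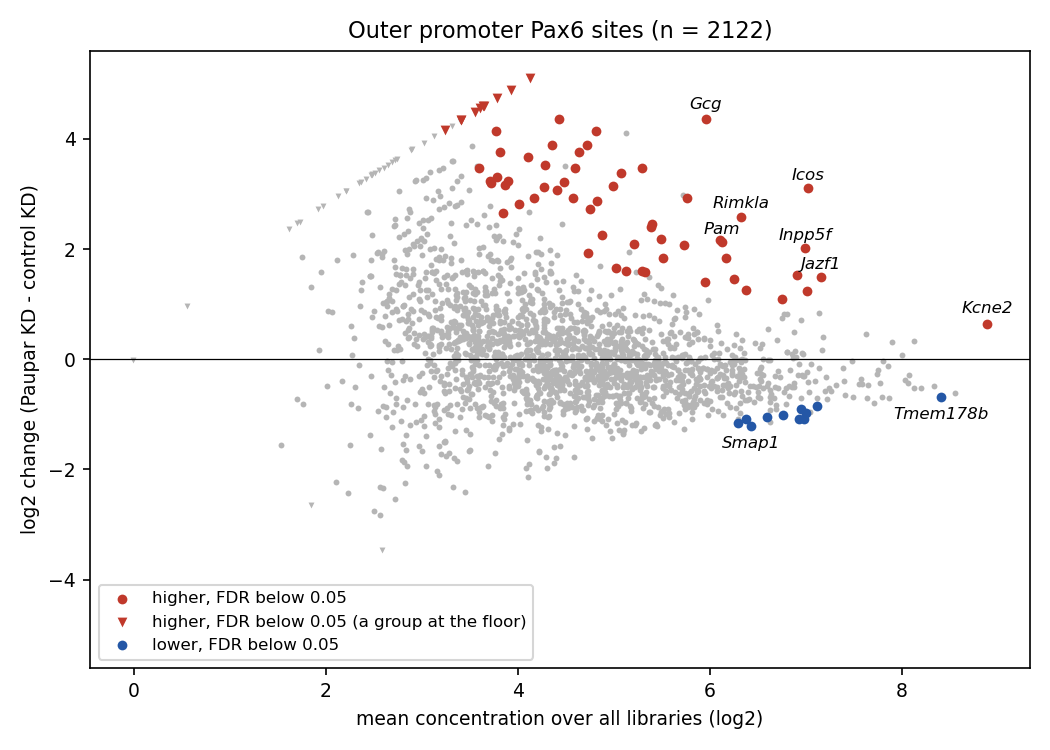
Log2 change (Paupar KD minus control KD) against mean concentration (log2) for the 2122 outer promoter sites. Red points are the 66 higher sites (triangles, grey ones too: a group at the floor), blue points the 11 lower sites, grey the others; the lower sites lie at high signal and the higher sites across the range.

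Calls were spread over both bands and both sides of the outer promoter. At 1 to 2 kb, 39 sites were higher and 6 lower of 1205, and at 2 to 3 kb 27 were higher and 5 lower of 917. Upstream there were 27 higher and 5 lower of 925, and downstream 39 and 6 of 1197. Sites measured from the main 5′ end of a gene had 27 higher and 5 lower of 782, and those measured from another start 39 and 6 of 1338. Genes with and without a core site had 28 and 38 higher outer sites, 3.22% in each case. Calls lay near both limits, with 6 higher and 1 lower of 165 outer sites at 1000 to 1100 bp and 1 and 1 of 76 at 2900 to 3000 bp. The 2 sites nearest to each limit on either side were uncalled. The nearest core sites, at Prr29 and Septin9 (1000 bp), had log2 changes of -0.06 and -0.16, and the nearest outer sites, at Adhfe1 (1002 bp) and Nkiras2 (1003 bp), 0.98 and -0.09, by the authors' deposited table. At the far limit, outer sites at Gm15441 (2996 bp) and Samd14 (2999 bp) had 0.57 and -0.01, and sites just outside at Lrrc1 (3002 bp) and Polr3gl (3003 bp) 1.05 and 0.18, by the authors' deposited table.

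The higher sites were mostly weak in control KD. Their median concentration was 2.50 in control KD and 5.57 in Paupar KD by the authors' deposited table, and 39 of the 66 lay below 3 in control KD. Of these, 10 were listed at the floor of the scale, -0.01, in control KD. For those no fold is given: Kctd8 (5.09 in Paupar KD), Slc25a5 (4.88), Top1 (4.73), Olfm4 (4.60), Stk32a (4.59), Zfp217 (4.55), Pde4b (4.48), Apeh (4.34), Gm19522 (4.34) and Rgs4 (4.16), with FDRs of 0.00500 to 0.0446, by the authors' deposited table. They included the genes of the mitochondrial ADP/ATP carrier (Slc25a5) and of topoisomerase I (Top1). At 5 of the 10 the summit was that of Paupar KD replicate 1 alone, at 4 both Paupar KD libraries had one, and the Apeh site had none.

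Among the other 56 higher sites the median log2 change was 2.84. The largest rise was at Lix1l (chromosome 3, 96603484 to 96603583), 0.99 for control KD and 5.37 for Paupar KD (log2 change 4.37, FDR 0.000632), its summit being that of Paupar KD replicate 1, by the authors' deposited table. Next came the Gcg upstream site, as given above. The cDNA gene 1700017G19Rik (chromosome 3, 40510832 to 40510931) had 1.58 and 5.73 (log2 change 4.15, FDR 2.4e-05) by the authors' deposited table. Gpr119, a lipid-sensing receptor gene of islet and gut endocrine cells, had 0.55 and 4.69 at 1.01 kb upstream (chromosome X, 48675493 to 48675592; FDR 0.0104) by the authors' deposited table. Both of these sites had summits in the 2 Paupar KD libraries and in neither control KD library.

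Dhrs4, which encodes a short-chain dehydrogenase/reductase, had 1.73 and 5.63 at 2.59 kb upstream (chromosome 14, 55484505 to 55484604; FDR 0.000147) by the authors' deposited table. Wdr61 had 1.37 and 5.27 at 2.99 kb downstream (chromosome 9, 54717721 to 54717820; FDR 0.00122) by the authors' deposited table. Deptor, which encodes an mTOR-binding inhibitor, had 0.95 and 4.71 (chromosome 15, 55134913 to 55135012; FDR 0.0118) by the authors' deposited table. Ncoa3, a nuclear receptor coactivator gene, had 1.34 and 5.0 (chromosome 2, 166046287 to 166046386; FDR 0.00527) by the authors' deposited table. At these 4 sites each Paupar KD library had a summit and neither control KD library did. Dst, a cytoskeletal linker gene, had 1.64 and 5.16 (FDR 0.00285), Ech1, an enzyme gene of fatty acid oxidation, 1.99 and 5.47 (FDR 0.000344), and Anapc5, a subunit gene of the anaphase-promoting complex, 0.99 and 4.48 (FDR 0.0417), by the authors' deposited table. Ttc39b, tied with Ech1 and Anapc5 at a log2 change of 3.48, had 2.69 and 6.17 (chromosome 4, 83280681 to 83280780; FDR 2.52e-06) and a summit in control KD replicate 1 too, by the authors' deposited table. The log2 changes from Dhrs4 to these 3 ran from 3.89 down to 3.48. Control KD values near the floor make the size of such changes uncertain.

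**Figure D3:**
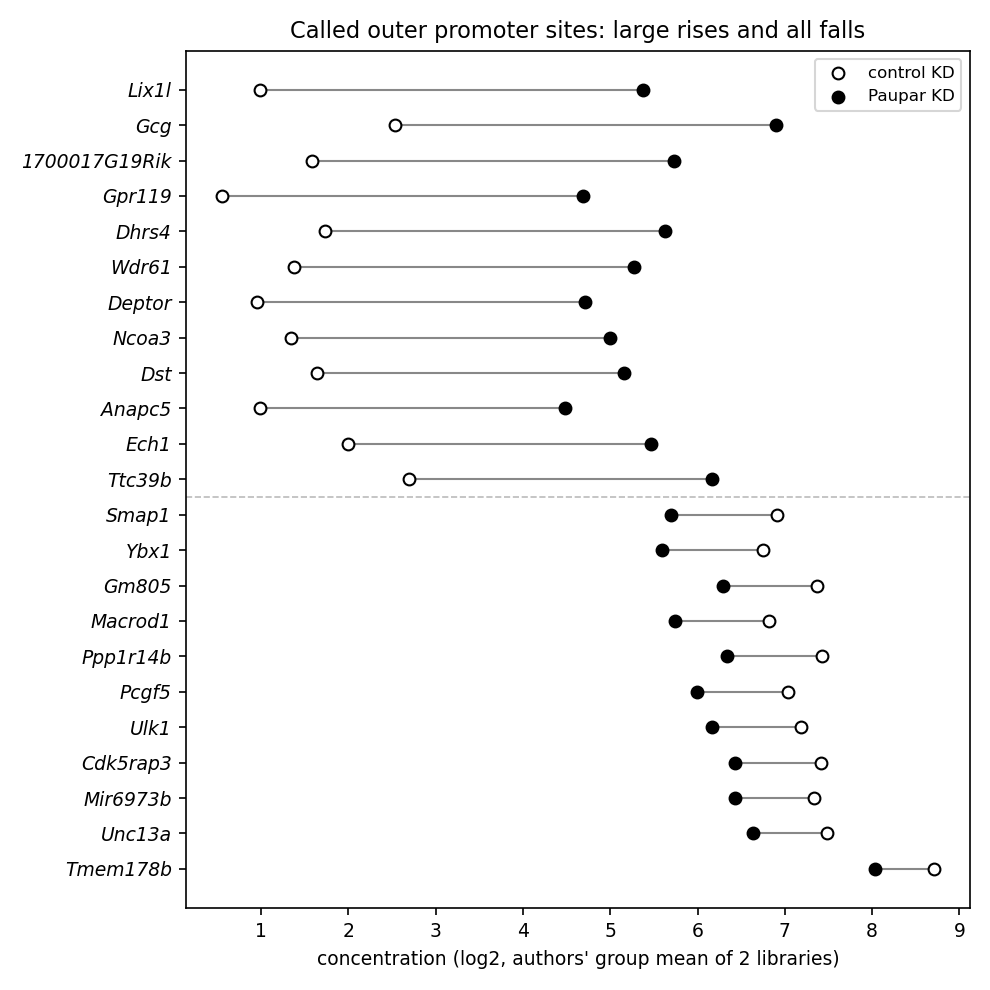
Concentration (log2, the authors' group mean of 2 libraries) in control KD (open) and Paupar KD (filled) at 12 of the called sites with the largest rises, 3 of them tied, and at all 11 called falls. The rises start between 0.55 and 2.69 in control KD, whereas the falls start between 6.75 and 8.71.

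Some higher sites already had clear signal in control KD. The next 8 were singled out after their values were seen, for that reason. Rimkla, whose enzyme makes N-acetylaspartylglutamate, had 4.51 and 7.10 at 2.56 kb downstream (chromosome 4, 119489846 to 119489945) and the lowest FDR of all outer sites, 6.64e-08, by the authors' deposited table. Inpp5f, a phosphoinositide phosphatase gene, had 5.65 and 7.67 (FDR 1.25e-06), and Jazf1, a zinc finger gene linked to type 2 diabetes in humans, 6.23 and 7.72 (FDR 0.000443), by the authors' deposited table. Icos, whose product costimulates T cells, had 4.76 and 7.86 (FDR 0.00547) by the authors' deposited table. All 4 had summits in the 2 Paupar KD libraries alone. Galk1, the galactokinase gene, had 4.66 and 6.82 (FDR 0.000244), Myo18a 5.95 and 7.48 (FDR 0.00132), Vps8 6.26 and 7.50 (FDR 0.00371) and the homeobox gene Hlx 5.08 and 6.48 (FDR 0.0225) by the authors' deposited table. These 4 had a summit in all 4 libraries, so that a peak had been found in control KD too. The higher sites that follow were named after their values were seen, for what their genes encode. They had less signal in control KD than the 8 above and, like the first 4 of those, no summit there. Ern1, which encodes the unfolded protein sensor IRE1, had 2.83 and 5.55 (FDR 0.00222) by the authors' deposited table. The ubiquitin ligase genes Ubr4 and Ubr3 had 2.55 and 5.94 (FDR 3.59e-05) and 4.27 and 5.89 (FDR 0.0253) by the authors' deposited table.

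The lower sites were strong and their changes small. Their median concentration was 7.33 in control KD and 6.29 in Paupar KD, and the log2 changes ran from -0.68 to -1.21 by the authors' deposited table. Each control KD library had a summit at all 11, and at 9 of them every library did. The largest fall was at Smap1, an Arf GTPase-activating protein gene (chromosome 1, 23846408 to 23846507), with 6.91 and 5.70 (log2 change -1.21, FDR 0.0119), by the authors' deposited table. Ybx1, which encodes a Y-box nucleic acid-binding protein, had 6.75 and 5.59 at 2.90 kb upstream (FDR 0.0272) by the authors' deposited table. The predicted gene Gm805 had 7.37 and 6.29 (FDR 0.0157), Macrod1, an ADP-ribosyl hydrolase gene, 6.82 and 5.74 (FDR 0.0360), and Ppp1r14b, a phosphatase inhibitor gene, 7.42 and 6.34 (FDR 0.0104), by the authors' deposited table. Each of these 3 had a log2 change of -1.08. Pcgf5, a Polycomb complex gene, had 7.03 and 5.99 at 1.13 kb upstream (chromosome 19, 36377839 to 36377938; FDR 0.0253) by the authors' deposited table. Ulk1, whose kinase starts autophagy, had 7.19 and 6.16 (FDR 0.0360), and Cdk5rap3 7.41 and 6.43 (FDR 0.0237), by the authors' deposited table. Unc13a, which encodes a primer of secretory vesicles, had 7.48 and 6.63 (FDR 0.0456) and Tmem178b 8.71 and 8.03 (FDR 0.0447) by the authors' deposited table. None of the 11 had an FDR below 0.01.

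A microRNA gene, Mir6973b, held the remaining lower site, 2.59 kb downstream of its start (chromosome 2, 131037712 to 131037811), with 7.33 and 6.43 (log2 change -0.91, FDR 0.0473), by the authors' deposited table. It was the 1 called site of 63 at 53 microRNA genes, whose median log2 change was 0.06. RefSeq (GRCm38.p6) gave mature sequences for 50 of these genes. Shown are the arms of the called gene and of 2 outer promoter genes of the miR-7 family, an abundant islet microRNA family, with the seed (bases 2 to 8) in capitals.
mmu-miR-6973b-5p: gUAGGUAUggggagaggacaggga
mmu-miR-6973b-3p: uGCUCUCUuacccuuccuag
mmu-miR-7a-5p (Mir7-2): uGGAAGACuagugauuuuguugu
mmu-miR-7b-5p (Mir7b): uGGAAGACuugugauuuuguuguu
The miR-7a and miR-7b arms share the seed GGAAGAC, which neither miR-6973b arm has. The strongest of 3 Mir7-2 sites, 2.44 kb upstream, had 4.98 and 5.29 (FDR 0.809), and the Mir7b site, 2.68 kb downstream, 5.43 and 5.32 (FDR 0.972), by the authors' deposited table. Mir375, another islet microRNA gene singled out after its values were seen like the miR-7 genes, had sites at 5.96 and 5.81 (FDR 0.893) and at 5.50 and 5.28 (FDR 0.861) by the authors' deposited table.

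The 8 strongest outer promoter sites were at Kcne2, Klf10, Tmem178b, Gm12409, Nfam1, Rbpms, Ankrd44 and Kcne1, and each had a summit in all 4 libraries. Kcne2, an accessory potassium channel subunit gene, had 8.54 and 9.17 at 1.16 kb upstream (chromosome 16, 92294360 to 92294459; log2 change 0.64, FDR 0.0497) by the authors' deposited table. Its neighbour Kcne1, also a channel subunit gene, had 8.21 and 7.93 (FDR 0.570) by the authors' deposited table. Klf10, a zinc finger factor gene induced by TGF-beta, had 8.84 and 8.21 (FDR 0.0962) by the authors' deposited table. Gm12409 (8.56 and 8.07), Nfam1 (8.44 and 7.92) and Rbpms (8.37 and 7.84) had FDRs of 0.194 to 0.199, and Ankrd44 (7.96 and 8.29) had 0.448, by the authors' deposited table. Only Kcne2 and Tmem178b passed the threshold, in opposite directions.

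Of 309 outer sites at genes of 22 lists, 15 were called. Among all 2122 outer sites, 77 were called. Over all 25234 sites inside the authors' adjustment, 855 were higher and 222 lower. Of 10 outer sites at alpha-cell identity genes, 2 were higher and 0 lower, both at Gcg, with a median log2 change of 1.09. The median over all sites of the table was -0.03. Over the 73 sites of every class at genes of this list it was 0.12, with 8 higher and 0 lower. Over the 10 core promoter sites of the list it was -0.33. Etv1, an ETS factor gene, had 0.61 and 3.90 (FDR 0.182), Slc38a5, a glutamine transporter gene, 3.21 and 4.75 (FDR 0.235) and Irx2, an Iroquois factor gene, 3.86 and 4.89 (FDR 0.420) by the authors' deposited table. Irx1 (4.93 and 5.06, FDR 0.933), the transthyretin gene Ttr, with 2 sites (4.20 and 3.89, FDR 0.877, and 2.97 and 4.13, FDR 0.558), Slc7a2 (5.09 and 4.86, FDR 0.872) and Pou3f4 (4.11 and 3.08, FDR 0.550) completed the list by the authors' deposited table. Beta-cell identity genes had 0 called of 2 sites, at Trpm5 (6.05 and 6.16, FDR 0.924) and Pax4 (5.19 and 4.68, FDR 0.673) by the authors' deposited table.

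Of 8 sites at islet transcription factor genes, 1 was higher and 0 lower, with a median of -0.27. The higher site was at Myt1, a zinc finger factor gene of endocrine differentiation (1.99 and 5.11 at 1.83 kb upstream, FDR 0.00484), by the authors' deposited table. The strongest of the list was at Meis1 (6.43 and 5.75, FDR 0.293), and Neurod1 had 4.58 and 4.37 (FDR 0.906), by the authors' deposited table. At genes of hormone processing and granules, 1 of 13 sites was higher and 1 lower, with a median of -0.19. The higher one was at Pam, whose enzyme amidates peptide hormones (4.71 and 6.83 at 1.92 kb downstream, FDR 0.000198), and the lower one at Unc13a, by the authors' deposited table. Cpe, the carboxypeptidase E gene, had 2 uncalled outer sites (4.23 and 4.77, FDR 0.741, and 4.86 and 3.93, FDR 0.447) by the authors' deposited table. Ion channel genes had 0 called of 14 sites (median -0.20), and Kcnj11, the pore subunit gene of the ATP-sensitive potassium channel, had 4.84 and 4.61 (FDR 0.894), by the authors' deposited table. Of 9 sites at islet receptor genes (median 0.01), 1 was higher and 0 lower, at Gpr119, while Ffar1, the fatty acid receptor gene, had 7.95 and 7.25 (FDR 0.105) at its stronger site by the authors' deposited table.

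Bhlhe41, a clock repressor gene, had the strongest site of the circadian clock list (7.51 and 6.94, FDR 0.203), and Cry2 had 7.08 and 5.96 (FDR 0.0653), by the authors' deposited table. Chromatin genes had 0 higher and 1 lower of 3 sites (median -0.67), at Pcgf5, beside Kmt2d with 7.13 and 6.46 (FDR 0.194) by the authors' deposited table. At splicing factor genes, 1 was higher and 0 lower of 10 sites (median 0.35), at the neuronal RNA-binding protein gene Elavl4 (1.34 and 4.57, FDR 0.0271), while Elavl2 had 6.24 and 6.19 (FDR 0.970), by the authors' deposited table. Cell cycle genes had 0 called of 6 sites (median 0.06), with E2f2 (7.54 and 7.07, FDR 0.401) the strongest by the authors' deposited table. The lens and eye and the neural Pax6 programmes each had 0 called of 4 sites (medians 0.11 and -0.14), led by Maf (5.48 and 4.17, FDR 0.195) and Meis1 by the authors' deposited table. Neighbours of the Pax6 locus had no outer promoter site, and the 6 promoter sites of Pax6 and the 1 of Paupar lay within 1 kb of a start. Mbd3, on chromosome 10, likewise had 1 promoter site, within 1 kb.

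In the lists made from gene name patterns, solute carriers had 1 higher and 0 lower of 49 sites (median -0.11), at Slc25a5. Of 28 sites at zinc finger genes (median -0.11), 2 were higher and 0 lower, at Zfp746 (2.46 and 5.40, FDR 0.0105) and Zfp217, by the authors' deposited table. Rnf6, a ubiquitin ligase gene, had a higher site (1.51 and 4.75, FDR 0.0431) by the authors' deposited table. Tbc1d30, a gene of the TBC domain family that regulates Rab proteins, had a higher site as well (2.18 and 5.25, FDR 0.00405) by the authors' deposited table. The homeobox and forkhead name pattern had 0 called of 17 (median -0.33), the kinase name pattern 0 of 16 (median -0.295), ribosomal protein genes 0 of 7 (median 0.17) and histone genes 0 of 2 (median 0.545). The strongest sites were at Paxip1, Camk2n2, Mrpl58 and Hist1h1d, all uncalled (FDR 0.735, 0.663, 0.522 and 0.672), by the authors' deposited table. Paxip1 and Camk2n2 matched by name alone, since Paxip1 encodes a Pax-interacting protein without a homeodomain and Camk2n2 an inhibitor of a kinase. The patterns also left genes out. Called sites at the homeobox gene Hlx and the kinase gene Ulk1, given above, were in neither list, so 0 called holds for the name patterns only. In these lists the calls were read against the background given above and nothing was tested.

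Pde4b, Abcc8, Coro1c and Mical3 were among the genes with the most outer promoter sites, spread over 3 to 4 starts each. Pde4b, a cyclic AMP phosphodiesterase gene, had 6, of which 1 was called, the floor site named above. The 2 strongest Pde4b sites had 5.91 and 5.73 (FDR 0.861) and 5.01 and 5.23 (FDR 0.867), each with a summit in all 4 libraries, by the authors' deposited table. Abcc8, which encodes the sulfonylurea receptor of the ATP-sensitive potassium channel, had 5 sites and 0 called, led by 6.45 and 6.16 (FDR 0.731) and 6.12 and 5.64 (FDR 0.544) by the authors' deposited table. Coro1c and Mical3, both genes of actin-associated proteins, had 5 sites each and 0 called. The strongest Coro1c site is the window printed above. The lowest FDR among the Mical3 sites was 0.320, at 1.04 and 3.47, by the authors' deposited table.

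At the 701 genes with a core and an outer site, the strongest outer and the strongest core site were set side by side. They were matched by gene alone and could belong to different starts of it. The 2 sites lay a median of 3013 bp apart, and at Foxp1 427354 bp apart. The core site was stronger at 499 genes and the outer site at 199. Median concentrations were 5.54 in the core and 4.43 in the outer promoter, and median log2 changes -0.32 and 0.07, by the authors' deposited table. The outer site had the higher change at 455 genes (64.9%). At the 136 genes whose 2 sites lay within 0.5 of each other in mean concentration, it did so at 72 (52.9%), with medians of -0.07 in the outer and -0.215 in the core promoter. Across 686 genes with no site at the floor, the 2 changes had a Pearson r of 0.00611 and a Spearman coefficient of 0.0156. Both sites of a gene come from the same libraries, so this is a description.

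An outer site was called at 29 of the 701 genes, with 24 higher and 5 lower, and a core site at 17, with 5 higher and 12 lower. In the whole classes, 66 outer sites were higher and 11 lower of 2122, and 47 core sites higher and 89 lower of 5094. Whether calls shared by a gene were rarer than these rates give was not tested. Both sites were called at 1 gene, Ecd, a cell cycle and splicing-associated gene, and in opposite directions. Its outer site, 1.97 kb downstream of a start (chromosome 14, 20345978 to 20346077), had 4.97 for control KD and 6.82 for Paupar KD (FDR 0.000186), and its core site (20348036 to 20348135) had 7.15 and 6.0 (FDR 0.0270), by the authors' deposited table. These windows lay 2058 bp apart. Only genes with a called outer or core site were ranked by the difference between the 2 changes. The largest differences among them, outside the floor, were at Deptor, A830010M20Rik, Gpr119, Myt1, Anapc5, Dhrs4, Gcg and Elavl4. At Deptor the core site had 3.89 and 3.01 (FDR 0.661), and at Gpr119 3.98 and 3.84 (FDR 0.952), by the authors' deposited table. At Myt1 it had 6.94 and 6.05 (FDR 0.0795), at Anapc5 6.58 and 6.13 (FDR 0.512), at Dhrs4 4.21 and 4.20 (FDR 1.0) and at Elavl4 6.64 and 6.26 (FDR 0.623) by the authors' deposited table. At A830010M20Rik alone the core site was the called one, with 0.61 and 4.62 (FDR 0.0160), beside an outer site at 7.30 and 6.69 (FDR 0.221), by the authors' deposited table. These 8 genes were chosen for a large difference and a called site, so which of their sites was called is a description only.

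**Figure D4:**
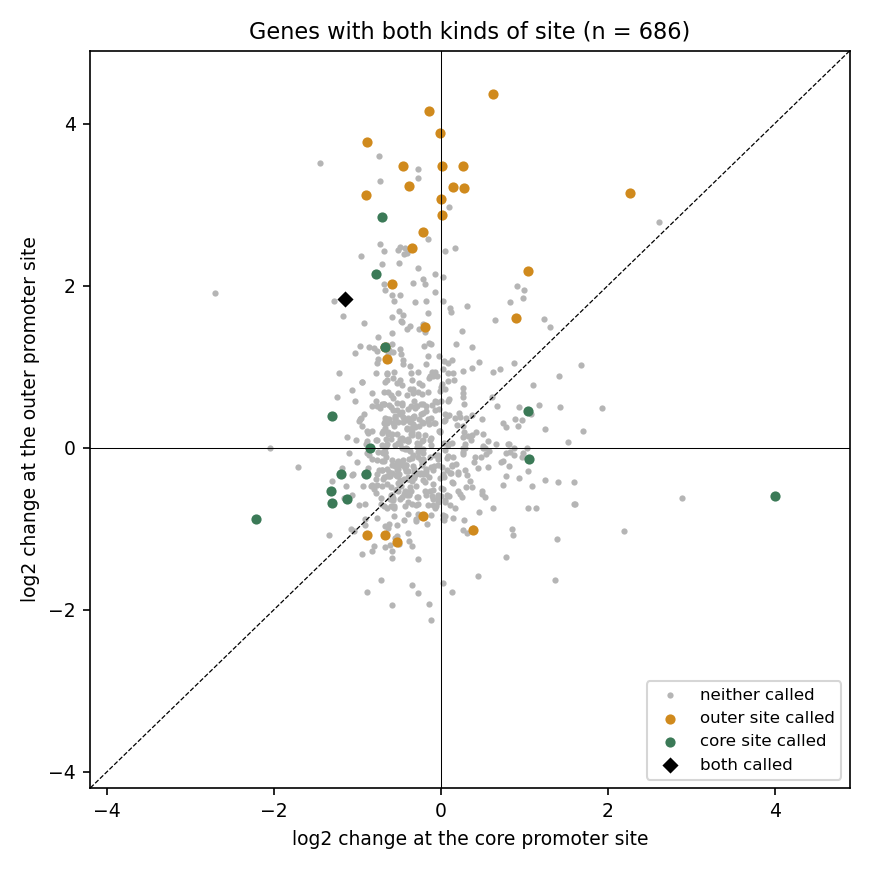
Log2 change (Paupar KD minus control KD) at the strongest outer promoter site against that at the strongest core promoter site of the same gene, for 686 genes with no site at the floor; the dashed line marks equal changes. Ecd, the black diamond, is the 1 gene with both sites called, and the points spread on both sides of the line, 455 of the 701 genes having the higher change at the outer site.

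The peak lists of single libraries gave the view by sample. A summit within 250 bp of the middle of the site was found at 979 outer sites in control KD replicate 1, 645 in control KD replicate 2, 1035 in Paupar KD replicate 1 and 1314 in Paupar KD replicate 2. The Paupar KD libraries were both above the control KD libraries. The means were 812 ± 236 (SD, n = 2) and 1174 ± 197 (SD, n = 2), a ratio of 1.45 (two-sided exact permutation p = 0.33; 4 libraries allow no smaller value). The lists differed in length, from 9983 summits in control KD replicate 2 to 17942 in Paupar KD replicate 2. With the 9983 best-scored summits of each list the counts were 670, 645, 647 and 705, in the same order of libraries, and the groups overlapped (ratio 1.03, exact permutation p = 0.67). Of all sites of the table matched by a library, outer promoters made up 7.47% and 7.05% in control KD and 7.25% and 7.93% in Paupar KD. These shares overlapped, with means of 7.26% ± 0.294 and 7.59% ± 0.478 (SD, n = 2; exact permutation p = 0.67).

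**Figure D5:**
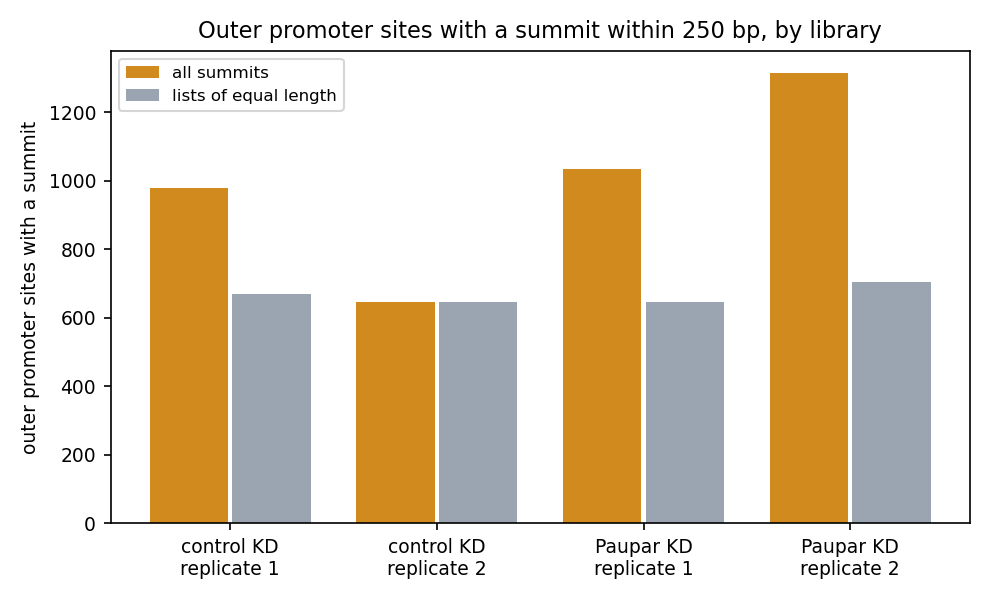
Number of outer promoter sites with a summit within 250 bp, for each Pax6 ChIP library, with all deposited summits (orange) and with the 9983 best-scored summits of each library (grey). The Paupar KD libraries stand above the control KD libraries with all summits, 1035 and 1314 against 979 and 645, and the groups overlap with lists of equal length.

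Summits showed how many libraries stood behind each site. Of the outer sites, 357 (16.8%) had a summit in all 4 libraries, 1016 in a single library and 112 in none. Summits in Paupar KD replicate 2 alone were the most frequent pattern, with 420 sites, of which 3 were higher. Summits in Paupar KD replicate 1 alone were at 270 sites, of which 13 were higher. Both Paupar KD libraries, and neither of the controls, had a summit at 163 sites, of which 33 (20.2%) were higher and 0 lower. With summits in any 2 libraries, 8.64% of outer sites were higher, against 8.32% of all sites of the table. Both control KD libraries alone had one at 19 sites, of which 0 were called. Of the 66 higher sites, 51 had no summit in a control KD library and 15 had one, and a summit of Paupar KD replicate 1 lay at 61 of them and one of replicate 2 at 51. Summits and concentrations come from the same libraries, so these counts partly restate the calls. Counts for the same summit patterns over all sites are not given here. The values of single libraries at a site were not at hand, and the part that Paupar KD replicate 1 had in the calls was not tested. Without the 270 sites whose only summit was in that library, 53 sites were higher (2.86%, against 2.84% of all sites so chosen) and 11 lower (0.594%, against 0.968%), and the median log2 change was -0.09. These shares count sites outside the authors' adjustment too. On that base 3.11% of all outer sites were higher and 0.518% lower.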

How the data were processed

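Pax6 ChIP-seq of alphaTC1 cells from the control KD and Paupar KD groups, in 2 Pax6 ChIP libraries each, was analysed from the table of sites and the 4 lists of summits. Bowtie2, MACS2, DiffBind and ChIPseeker on mm10 are named, without versions, per the submitters' processing notes. The depth of the libraries is unknown. How DiffBind tested and normalized is not given in the sources used here. Deposited concentrations and fold are taken to be log2 values, the scale DiffBind writes, though the header names no base; fold and the gap between the authors' group means were over 0.015 apart at 0 sites. The sign was turned to Paupar KD minus control KD. The p-values and false discovery rates (FDR) are the authors' own as deposited; 74 outer promoter sites, and 1010 of all, had an FDR of 1 beside a p-value below 0.99 and were taken as outside the adjustment. The deposited summit score was read as −log10 of the q-value, the lowest values being 2.0 to 2.01 in every list, but no source used here states it; it only ranks or filters summits within a list. A log10FDR column of the authors was not needed, and the distance to the start, another value of the table, is in bp as deposited. Coordinates are 1-based on mm10; RefSeq tables are GRCm38.p6, and 2121 of 2122 outer sites had their gene ID in it. Symbols that a spreadsheet had turned into dates were restored by ID at 5 outer sites.

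Python 3.11.15, pandas 2.3.3 and scipy 1.17.1 were used. Sites with a concentration at or below 0 in a group were said to be at the floor. Exact permutation tests compared the libraries; no test over sites was run. Summit matching was tested on simulated data, where 100.0% of 2000 sites came out right. Outer sites were named if they were among the 12 largest called changes in either direction (13 rises, with ties; floor sites apart), the 8 strongest, called or strongest in a gene list, at the 5 genes with the most outer sites, at the 8 genes with the largest difference between outer and core change, or next to the distance limits, and Gcg, Pax6, Paupar and Mbd3 always; other sites are said to be chosen after their values were seen or are further examples from a list. The 8 genes with the largest difference were drawn from those with the outer or the core site called. One list of summits carries a number in its name other than its sample's replicate number and was assigned by its sample. The inputs were not analysed here, and the results of a few named sites and lists are not reported here. Sequences planned for named sites needed a genome and were limited to windows in the RefSeq promoters. The outer promoter sites and the gene lists were chosen with earlier results of these data known. Alternatives varied the FDR, signal and summit filters, the matching distance and the libraries.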

Additional observations from a re-analysis of the deposited data

How the results depend on the processing

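The count of higher outer promoter sites was 36 (1.7%, against 1.39% of all sites) at an FDR below 0.01, 92 (4.34%, against 4.99%) below 0.10 and 203 (9.57%, against 10.7%) at an unadjusted p below 0.05. The count of lower sites was 0 (against 0.137% of all sites), 27 (1.27%, against 1.8%) and 125 (5.89%, against 6.67%) in the same order. Shares in this section are of all sites, also those outside the authors' adjustment. On that base the main setting had 3.11% of outer sites higher and 0.518% lower. With a summit required in at least 1 library of each group, an alternative chosen after seeing the data like the one without sites of Paupar KD replicate 1 alone, 15 were higher. The filter on a distance of 1000 to 3000 bp kept all 2122 outer sites by rule, and so all 66 higher ones. The other filters on sites left 48 to 56 higher and 11 lower sites. All 11 lower sites had a mean concentration of at least 6.29 and a summit in both control KD libraries. These filters could thus not remove them, and their unchanged count was set in advance. The median log2 change of 0.02 turned to -0.15 with a mean concentration of at least 4, to -0.10 with summits in at least 2 libraries, to -0.09 without sites of Paupar KD replicate 1 alone and to -0.205 with a summit in each group; the same filters put the median of all sites at -0.20, -0.15, -0.14 and -0.23. With a library left out, the ratio of outer sites with a summit was 1.20 to 1.82, lowest without control KD replicate 2 and highest without control KD replicate 1, and the ratio of their share 0.999 to 1.09, with no test. Matching within 100 or 500 bp and scores of at least 5 gave ratios of 1.38 to 1.45. Within 100 bp the groups overlapped, with 832 sites in Paupar KD replicate 1 and 838 in control KD replicate 1 (exact permutation p = 0.67). Within 500 bp and with scores of at least 5 the groups did not overlap (exact permutation p = 0.33 for each). With the replicate number as a block the ratios were 1.47 (exact permutation p = 0.50, the smallest that 2 pairs allow) and 1.05 (exact permutation p = 1.0). Nothing in the labels ties equal numbers to one culture, and 2 pairs are too few to check it. No site could be refitted without a library, and no block could be put on the authors' test, because the table holds group means.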
